A study of Mus musculus with 8 samples.

Results

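The 10 genes described here, Fos, Fosb, Jun, Junb, Jund, Egr1, Atf3, Ier2, Nr4a1 and Dusp1, were taken by name from the 19945 genes of a single-cell RNA-seq count table as immediate early genes, genes that are induced by stimulation or by dissociation of a tissue. No measured value entered this choice, but it was made with earlier results of these data known. The cells came from islets handpicked from wild-type mice after collagenase digestion of the pancreas. Mice were 6 to 12 weeks old at the start and received vehicle or FAKi, the focal adhesion kinase inhibitor PF562271, at 50 mg/kg by oral gavage. Gavage went on for 3 weeks with 2 doses per day, and 10 days passed between the last dose and islet collection. Islets of 5 mice were pooled into 1 library per condition, each sequenced on 4 lanes that make up the 8 samples of the series. Neither lanes nor cells are replicates of a treatment, so no p-value is given for vehicle against FAKi, and every interval below is an exact 95% interval that covers counting error only.

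Immediate early genes are transcribed within minutes of a stimulus without new protein synthesis, mostly through kinase cascades that act on SRF and CREB bound at their promoters. Fos, Fosb, Jun, Junb and Jund encode subunits of the dimeric transcription factor AP-1. Egr1 encodes a zinc finger factor, Nr4a1 an orphan nuclear receptor and Atf3 a stress-induced bZIP factor, Dusp1 encodes a phosphatase that switches MAP kinases off, and Ier2 encodes a small nuclear protein. Depolarisation and cAMP induce several of them in islet cells, and digestion of a tissue into single cells induces them in many cell types.

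The deposited table held 3776 vehicle cells with 59514118 unique molecular identifiers (UMIs) and 3183 FAKi cells with 57836783 UMIs, and the labels give 8832 and 8437 cells as loaded. Median depth was 10101.5 UMIs per vehicle cell and 13688 per FAKi cell, and 4 barcodes occurred in both libraries. The authors' annotation groups 17 clusters into the 12 classes used here. Defining markers were highest in the class of their name, except that Hhex, a δ-cell factor, was highest in ductal cells. Ppy, the γ-cell hormone, was highest in the δ class, so this class was marked by both hormones, and globin genes were highest in acinar cluster 1. In both libraries the β class had 55.2% and 55.9% insulin UMIs. Insulin UMIs also occurred in every other class, and their median number per cell was higher in FAKi than in vehicle in 11 of 11 classes other than β-cells, from 33 to 54.5 in α-cells and from 20 to 97.5 in T cells. The 28 FAKi T cells had 42.6% insulin UMIs in total against 7.65% in the 168 vehicle T cells, and there were 9 FAKi B cells.

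Half-sites of the cAMP response element, the sequence bound by CREB and ATF factors, were looked for in the promoters of the members, and stretches of 6 promoters are shown because these genes diverged most between the libraries or stand for the family. RefSeq promoters (GRCm38.p6, the same assembly as mm10) matched 8 of the 10 members, without Egr1 and Ier2. The letters TGACG or, on the other strand, CGTCA were found between 250 bases before and 50 after the start in 6 of these 8, and in 20.8% of all 32851 promoters of the table. The full palindrome TGACGTCA, which contains TGACG and CGTCA, was found in 1 member, Dusp1, and in 1.79% of all promoters. Jun had neither half-site, and the related TGACATCA was looked for in Jun alone, so no share of all promoters is given for it. Each line below reads 5′ to 3′ on the gene's strand, and capitals mark the half-sites or, in Jun, TGACATCA.
Fos (chr12:85473740-85473889, plus strand): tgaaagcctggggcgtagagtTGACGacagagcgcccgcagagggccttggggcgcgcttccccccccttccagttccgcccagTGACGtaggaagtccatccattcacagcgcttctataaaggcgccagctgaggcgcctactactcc
Jun (chr4:95052223-95052372, minus strand): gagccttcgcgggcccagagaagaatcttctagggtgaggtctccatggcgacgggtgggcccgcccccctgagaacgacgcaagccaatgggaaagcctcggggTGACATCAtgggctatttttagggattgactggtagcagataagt
Junb (chr8:84978749-84978898, minus strand): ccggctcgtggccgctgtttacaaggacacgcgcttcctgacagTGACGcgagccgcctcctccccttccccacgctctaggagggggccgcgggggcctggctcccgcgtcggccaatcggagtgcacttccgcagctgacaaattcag
Atf3 (chr1:191183334-191183483, minus strand): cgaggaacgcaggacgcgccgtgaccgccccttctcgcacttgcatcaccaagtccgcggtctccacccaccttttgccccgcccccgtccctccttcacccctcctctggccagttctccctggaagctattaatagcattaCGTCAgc
Nr4a1 (chr15:101266696-101266845, plus strand): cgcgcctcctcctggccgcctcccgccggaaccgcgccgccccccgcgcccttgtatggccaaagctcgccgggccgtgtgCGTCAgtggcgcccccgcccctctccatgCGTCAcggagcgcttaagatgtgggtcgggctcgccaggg
Dusp1 (chr17:26508523-26508672, minus strand): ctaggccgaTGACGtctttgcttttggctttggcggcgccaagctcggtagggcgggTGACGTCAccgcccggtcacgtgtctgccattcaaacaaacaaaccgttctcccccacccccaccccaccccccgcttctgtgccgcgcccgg
All but the stretch of Dusp1 end at the base before the RefSeq start, and that of Dusp1 ends 51 bases before it. A match of letters is a description of the sequence and not evidence of binding in these cells.

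Summed over the 10 members, the level was highest in ductal cells, the epithelium of the pancreatic ducts, and lowest in acinar cluster 2, the cluster richest in digestive enzyme transcripts. Ductal cells had 32237 UMIs of the members per 1000000 UMIs of the class (counts per 1000000, CPM) in vehicle (95% interval 32096 to 32378) and 29426 CPM in FAKi (29198 to 29655). Pericytes, the contractile cells around capillaries, followed with 25925 and 18877 CPM, and fibroblasts with 17247 and 16056 CPM. Macrophages had 14261 and 14164 CPM and endothelial cells 13027 and 10420 CPM. Among the endocrine cells, δ-cells had 12140 and 14656 CPM, α-cells 11494 and 15031 CPM, and β-cells 5995 and 4271 CPM. T cells had 9810 and 5668 CPM and B cells 7703 and 12992 CPM. Acinar cluster 1 had 3245 and 2354 CPM, and acinar cluster 2 had 1110 and 1390 CPM. The counting intervals of neighbouring classes in this order did not overlap in vehicle. Between the libraries the order changed in the middle, where α-cells and δ-cells passed macrophages and endothelial cells in FAKi.

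**Figure D1:**
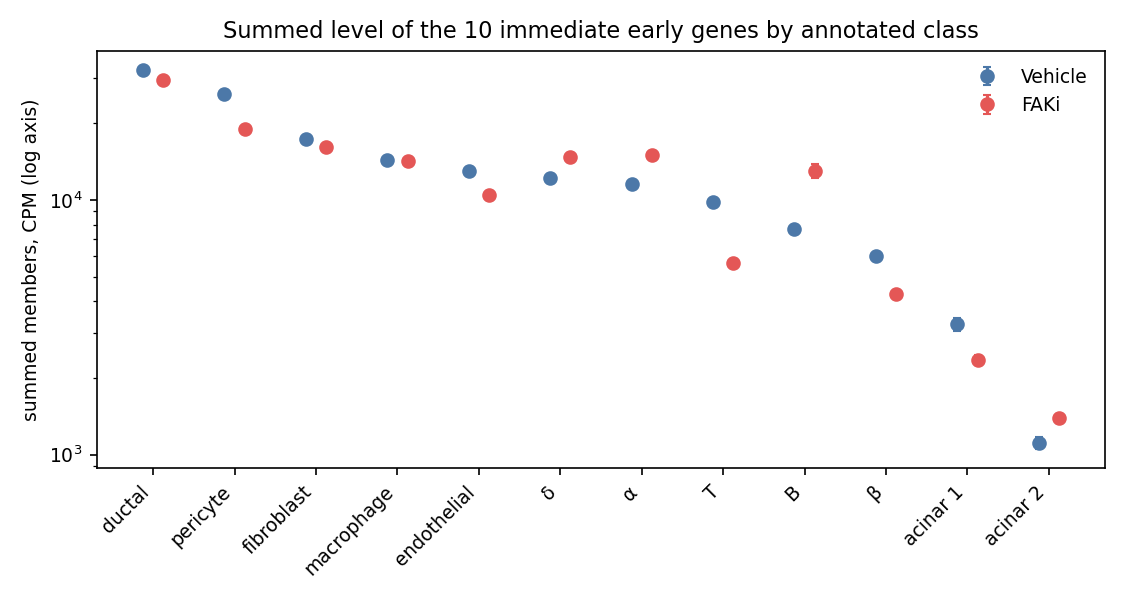
Summed level of the 10 immediate early genes in CPM on a log axis for the 12 annotated classes, ordered by the vehicle level, with vehicle in blue and FAKi in red and bars for exact 95% Poisson intervals (counting error only). The highest class, ductal cells, stood at 32237 CPM in vehicle and the lowest, acinar cluster 2, at 1110 CPM; FAKi lay below vehicle in β-cells and above it in α-cells and δ-cells.

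In the vehicle library 7 of the 10 members were highest in ductal cells (Junb, Jund, Egr1, Atf3, Ier2, Nr4a1 and Dusp1), and 22.0% of the 14384 genes ranked were highest there. Fos, Fosb and Jun were highest in pericytes. In FAKi 7 members were highest in ductal cells of the 10 classes with at least 50 cells, beside 26.2% of 13540 genes. Of the vehicle set Dusp1 was instead highest in FAKi macrophages, and Fos was among the 7 in FAKi. Acinar cluster 2 had the lowest level of all 10 members in vehicle and of 9 in FAKi, but 60.3% and 73.0% of the genes ranked were lowest there, so the position of the members at the bottom of this class was that of most genes. No class is known to lack immediate early transcripts, so there is no class whose share gives the level of free RNA, and acinar cluster 2 is only the lowest.

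The low place of β-cells in CPM depended on the total, by rank more so in vehicle than in FAKi. More than 55% of their UMIs were insulin, and when the 20 most abundant genes of the table were left out of the total, β-cells had 16945 CPM in vehicle and 12469 in FAKi. On that scale vehicle β-cells stood above endothelial cells at 15012 CPM and below α-cells at 19893 and δ-cells at 21879. Ductal cells remained the highest at 36191 and acinar cluster 2 the lowest at 1800. FAKi β-cells stayed just below FAKi endothelial cells, at 12479 CPM, and took rank 9 of the 12 classes, against rank 10 with all genes in the total.

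Detection of Fos followed its level in β-cells and α-cells. After thinning each cell to 1000 UMIs, at least 1 UMI of Fos was found in 70.2% of 1063 vehicle β-cells (exact binomial interval 67.3 to 72.9) and in 55.1% of 1320 FAKi β-cells (52.3 to 57.8). In α-cells the share was 85.7% of 272 in vehicle (80.9 to 89.6) and 93.1% of 434 in FAKi (90.3 to 95.3). Without thinning, these shares were 97.4% and 95.4% in β-cells and 98.5% and 100% in α-cells, at median depths of 30792.5 and 30427.5 UMIs for β-cells and 13126 and 13262.5 for α-cells. In acinar cluster 2, the lowest class, 23.3% of 86 vehicle cells and 24.6% of 114 FAKi cells had a Fos UMI after thinning, and 79.1% and 72.8% before it, at median depths of 7931 and 7280.5 UMIs. Fos was at 262 and 368 CPM in this class, so its detection did not follow the level there. The shares in both endocrine classes were thus above the share in the lowest class.

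The make-up of the members' UMIs differed between classes. In vehicle, Fos was the most abundant member in 8 of the 12 classes, the endocrine cells among them, with 24.7% of the members' UMIs in vehicle β-cells, 23.5% in α-cells and 27.6% in δ-cells. Junb was the most abundant in the other 4, with 33.6% in T cells, 27.2% in B cells, 20.8% in ductal cells and 18.3% in endothelial cells. In FAKi, Junb was first in no class. Fos was first in ductal cells with 18.1%, in T cells with 22.9% and in B cells with 25.7%, and Jun in endothelial cells with 24.3% and in pericytes with 21.5%. Nr4a1 was the least abundant member in every class of both libraries, at 0.453% of the members' UMIs in vehicle β-cells.

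**Figure D2:**
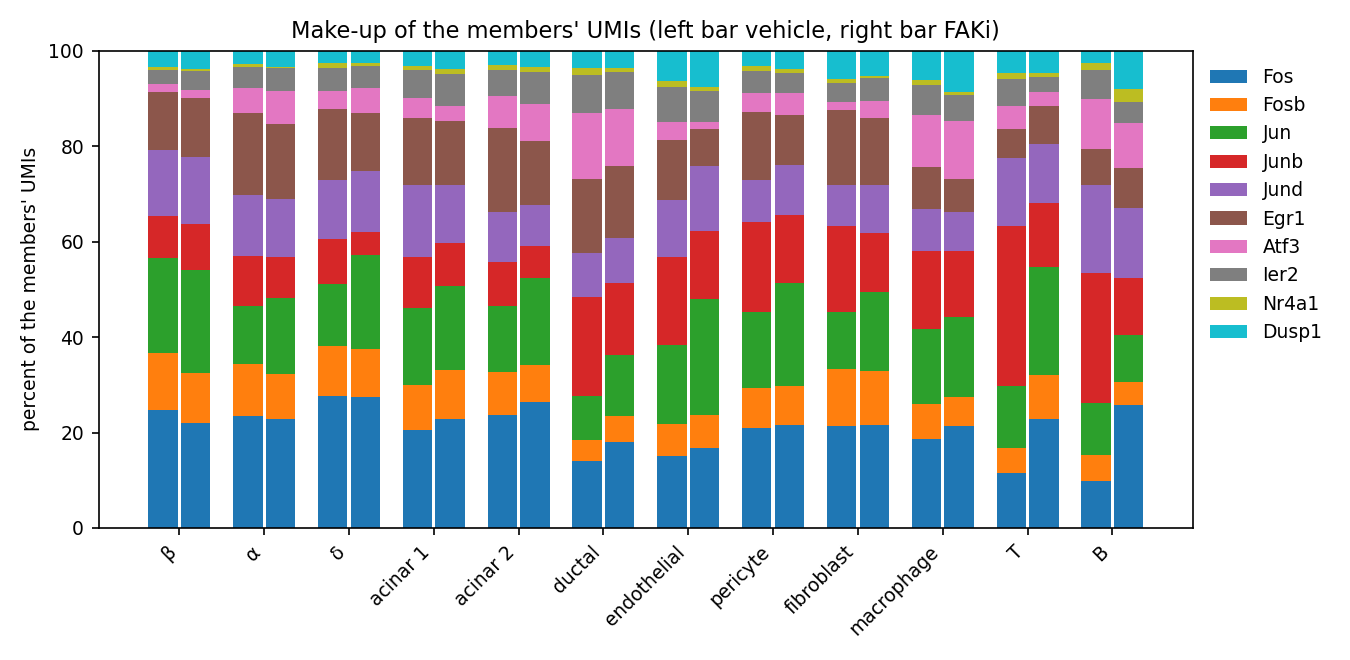
Percent of the members' UMIs that each of the 10 genes held in each annotated class, with the left bar of each pair for vehicle and the right bar for FAKi. Junb held 33.6% in vehicle T cells and 8.95% in vehicle β-cells, where Fos held 24.7%.

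Across the 24 groups of a class in a library, the level of each member tracked the sum of the other 9 members, with Pearson's r of log2(CPM + 1) from 0.82 for Atf3 to 0.96 for Jund and Ier2. These points share libraries, total counts and free RNA, so the values describe the table and are given without a p-value. Fos and Fosb, which lie on different chromosomes, had the highest r of any pair of members, 0.96, and Atf3 and Fosb the lowest, 0.67. Of 10721 genes with at least 500 UMIs, those most like the summed members over the 24 groups were Lasp1 (r = 0.96), Rhob (0.96), Cers2 (0.95), Slc25a17 (0.95) and Mrps36 (0.95). Rhob encodes a small GTPase and is itself an immediate early gene.

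Which immediate early genes differed between islets of FAKi-treated and vehicle-treated mice was then asked class by class. A member was counted as higher or lower where its CPM differed by 1.5-fold or more, and the share of all genes with at least 50 UMIs in the class that did so is given beside each count. Of the 120 pairs of a member and a class, 15 were higher and 27 lower in FAKi by this fold, where 5.15% and 9.64% of 72726 pairs of any gene and a class were. B cells, with 9 FAKi cells, held 7 of the 15, and T cells 6 of the 27. By 2-fold, 4 pairs were higher and 6 lower, where 1.47% and 3.93% of all pairs were, and 3 of the 4 lay in B cells and 4 of the 6 in T cells. The direction differed between classes and between members.

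In β-cells all 10 members were lower in FAKi with an interval below 1, as were 22.8% of 12046 genes. Summed, they went from 5995 CPM in 1076 vehicle cells to 4271 CPM in 1336 FAKi cells, a ratio of 0.712 (0.708 to 0.717). Fos went from 1481 to 940 CPM (ratio 0.634, 0.626 to 0.643), and Fosb, which dimerises with the same Jun partners, from 715 to 446 CPM (0.624, 0.611 to 0.636). Nr4a1 went from 27.1 to 17.7 CPM (0.651, 0.588 to 0.720). These 3 of 10 passed the fold and none was higher by it, where 4.25% of 12046 genes were lower and 1.91% higher. Jun, at 1193 and 922 CPM, had a ratio of 0.773 and Junb, at 536 and 413 CPM, of 0.771, so their proportion hardly moved. Ier2 was the closest to 1, with 182 and 168 CPM (0.923, 0.891 to 0.956).

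The lower level in FAKi β-cells was found in the 2 larger of the 3 β-cell clusters. Cluster 0 had 6102 CPM in 650 vehicle cells and 4292 in 675 FAKi cells (0.703), and cluster 1 had 4653 CPM in 305 and 3092 in 546 cells (0.665). In cluster 10, the smallest, the sum was 8116 CPM in 121 vehicle cells and 8168 in 115 FAKi cells, a ratio of 1.01 (0.989 to 1.02). Cluster 10 thus had the highest level of the 3 in both libraries. There Fos had a ratio of 0.920 (0.889 to 0.952), whereas Jun went from 1273 to 1655 CPM (1.30, 1.25 to 1.35) and Atf3 from 164 to 231 CPM (1.41, 1.26 to 1.58). Median depth was 34677 and 34237 UMIs in cluster 0, 20070 and 16908 in cluster 1, and 24960 and 26713 in cluster 10.

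In α-cells the direction was the opposite for 9 of the 10 members, with intervals above 1, as for 10.7% of 9777 genes. Summed, they went from 11494 CPM in 273 vehicle cells to 15031 CPM in 434 FAKi cells (1.31, 1.29 to 1.32). Jun went from 1396 to 2381 CPM (1.71, 1.65 to 1.76), Atf3 from 587 to 1031 CPM (1.76, 1.67 to 1.85) and Dusp1 from 318 to 495 CPM (1.56, 1.46 to 1.67). These 3 were higher by the fold, where 4.85% of 9777 genes were. Fos, at 2696 and 3441 CPM, had a ratio of 1.28 (1.25 to 1.31) and Junb, at 1195 and 1288 CPM, of 1.08 (1.04 to 1.12). Nr4a1 was the exception, at 54.3 and 31.8 CPM (0.585, 0.478 to 0.716), and was 1 member lower by the fold where 2.74% of genes were.

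In δ-cells 7 members were higher with intervals above 1, as were 4.95% of 9968 genes. The sum went from 12140 CPM in 328 vehicle cells to 14656 CPM in 358 FAKi cells (1.21, 1.19 to 1.22). Jun went from 1596 to 2889 CPM (1.81, 1.76 to 1.86) and Atf3 from 456 to 772 CPM (1.69, 1.61 to 1.78), the 2 members that were higher by the fold, beside 2.13% of 9968 genes. Junb went the other way, from 1131 to 720 CPM (0.637, 0.611 to 0.663), and was 1 member lower by the fold beside 4.37% of genes. Nr4a1, at 111 and 75.6 CPM, had a ratio of 0.684 (0.600 to 0.780). Egr1, at 1804 and 1769 CPM, had an interval that included 1 (0.952 to 1.01).

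Free β-cell RNA could be gauged from the insulin UMIs of α-cells and δ-cells. If all of them came with β-cell RNA of the same library, they corresponded to 0.703% of the UMIs of vehicle α-cells and 0.957% of FAKi α-cells, and to 1.99% and 1.18% in δ-cells. With that RNA subtracted, which was decided on after the values were seen, the summed members had 11533 and 15135 CPM in α-cells and 12265 and 14780 CPM in δ-cells.

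**Figure D3:**
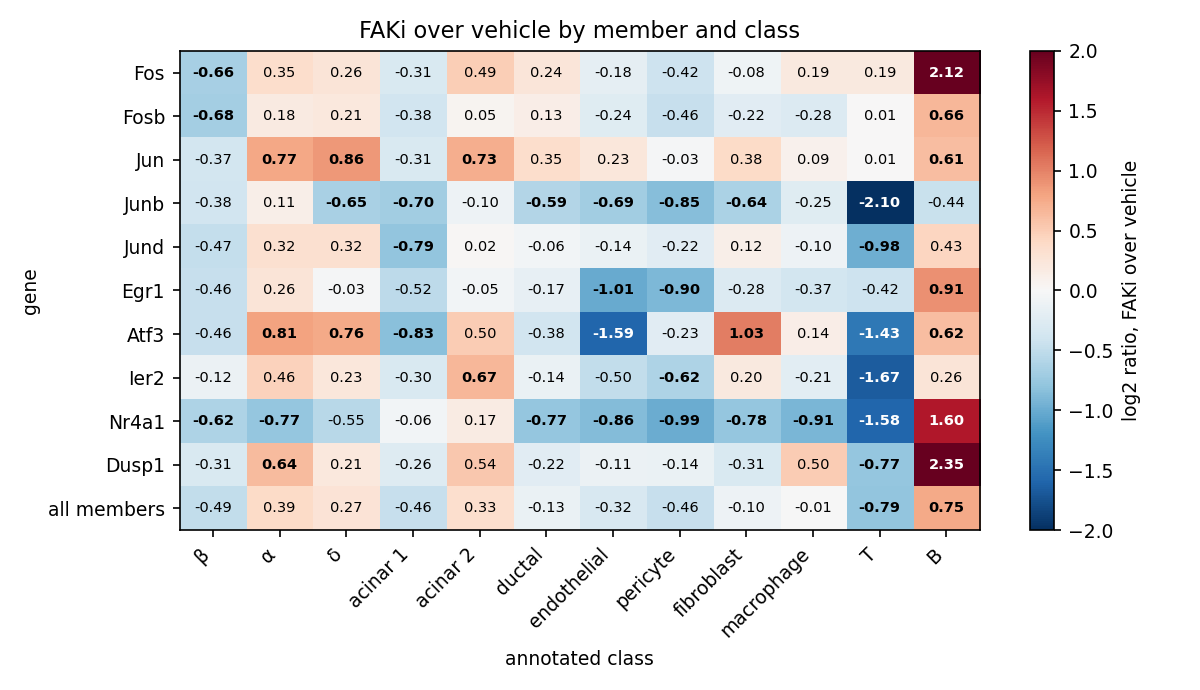
Log2 ratio of FAKi over vehicle for each member and for their sum in each annotated class, with red for higher and blue for lower in FAKi and bold figures for a difference of 1.5-fold or more. Junb was negative in 11 of 12 classes and Jun positive in 9, and the columns of T and B cells rest on 28 and 9 FAKi cells.

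In ductal cells, 498 in vehicle and 156 in FAKi, the sum differed little, with a ratio of 0.913 (0.905 to 0.921). Junb went from 6697 to 4453 CPM (0.665, 0.650 to 0.680) and Nr4a1 from 458 to 268 CPM (0.585, 0.534 to 0.639), the 2 members lower by the fold, beside 6.11% of 10384 genes. Fos, at 4508 and 5339 CPM (1.18, 1.16 to 1.21), and Jun, at 2942 and 3738 CPM (1.27, 1.24 to 1.30), were higher, but no member was higher by the fold, which 5.14% of genes were. Atf3, which was at 4500 and 3466 CPM, had its highest level of all classes in these cells.

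In endothelial cells 9 members were lower with intervals below 1, as were 12.0% of 8675 genes, and Jun alone was higher. The sum went from 13027 CPM in 543 vehicle cells to 10420 CPM in 269 FAKi cells (0.800, 0.786 to 0.814). Atf3 went from 489 to 162 CPM (0.332, 0.290 to 0.380), the lowest ratio of any member outside the T cells. Egr1 went from 1626 to 806 CPM (0.496, 0.466 to 0.528), Junb from 2384 to 1473 CPM (0.618, 0.590 to 0.647) and Nr4a1 from 171 to 94.5 CPM (0.551, 0.457 to 0.662). These 4 were lower by the fold, beside 8.63% of 8675 genes, and 0 were higher by it, beside 4.0%. Jun was at 2158 and 2532 CPM (1.17, 1.13 to 1.22).

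Pericytes had lower values of all 10 members in FAKi, with 8 intervals below 1, where 8.08% of 3465 genes had one. The sum went from 25925 CPM in 137 cells to 18877 CPM in 64 cells (0.728, 0.705 to 0.752), at median depths of 4641 and 3400.5 UMIs. Egr1 went from 3691 to 1977 CPM (0.536, 0.486 to 0.590), Junb from 4872 to 2702 CPM (0.555, 0.510 to 0.602), Ier2 from 1188 to 773 CPM (0.651, 0.554 to 0.761) and Nr4a1 from 271 to 137 CPM (0.505, 0.341 to 0.728). These 4 were lower by the fold, beside 10.5% of 3465 genes, and 0 were higher, beside 8.14%. Jun, at 4160 and 4064 CPM, had an interval that included 1 (0.909 to 1.05).

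In fibroblasts, 264 in vehicle and 63 in FAKi, the sum had a ratio of 0.931 (0.910 to 0.952). Atf3 went from 283 to 578 CPM (2.04, 1.79 to 2.33), against its direction in endothelial cells, and was 1 member higher by the fold, beside 7.09% of 6953 genes. Junb went from 3101 to 1992 CPM (0.642, 0.603 to 0.683) and Nr4a1 from 147 to 85.5 CPM (0.581, 0.423 to 0.782), 2 members lower by the fold beside 14.1% of genes. With β-cell RNA subtracted, the log2 ratio of the sum in fibroblasts turned from -0.10 to 0.06. It was 0.04 without the 20 most abundant genes, 0.01 without hormone genes in the total and -0.01 without called doublets. In macrophages, 129 in vehicle and 55 in FAKi, the sum had a ratio of 0.993 (0.966 to 1.02). Nr4a1, at 148 and 78.7 CPM (0.533, 0.368 to 0.755), was 1 member lower by the fold beside 15.8% of 3908 genes, and 0 were higher, beside 5.50%. Dusp1 was at 873 and 1233 CPM in macrophages (1.41, 1.28 to 1.56).

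The 2 acinar clusters differed in direction when UMIs were summed over cells. In acinar cluster 1, with a median of 1480 UMIs in 161 vehicle cells and 1140 in 297 FAKi cells, all 10 members had lower values in FAKi and the sum had a ratio of 0.726 (0.673 to 0.783). Junb, Jund and Atf3 were lower by the fold, 3 members beside 7.58% of 752 genes, and 0 were higher, beside 14.1%. Insulin took 14.7% and 23.4% of the UMIs of this cluster, and the log2 ratio of the sum depended on how insulin and depth were treated. It was -0.46 as given, -1.21 with β-cell RNA subtracted by insulin and -1.0 without insulin-rich cells, a setting that kept only 28 vehicle and 29 FAKi cells, against -0.27 without hormone genes in the total, -0.30 without the 20 most abundant genes and -0.34 after thinning. In acinar cluster 2 the sum had a ratio of 1.25 (1.17 to 1.34), Jun went from 153 to 253 CPM (1.65, 1.39 to 1.97) and Ier2 from 59.0 to 93.5 CPM (1.59, 1.19 to 2.12). These were 2 members higher by the fold beside 10.5% of 1060 genes, and 0 were lower, beside 5.09%. Ier2 turned to a log2 ratio of -0.58 as a mean over cells and -0.04 after thinning. Jun was at 192 and 238 CPM as a mean over cells and at 186 and 193 CPM after thinning, within the fold. The direction of the sum in acinar cluster 2 turned when each cell was given equal weight, to a log2 ratio of -0.28, and to -0.08 when cells were thinned to 1000 UMIs. The sum in acinar cluster 1 was at -0.51 and -0.34 under these alternatives, so both clusters then had negative values. In acinar cluster 2 the 10% of cells with most member UMIs held 41.7% of them in vehicle and 49.6% in FAKi.

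In T cells 6 members were lower by the fold, beside 44.4% of 3970 genes, and 0 were higher, beside 11.0%. The sum had a ratio of 0.578 (0.555 to 0.601), and Junb went from 3298 to 768 CPM (0.233, 0.210 to 0.257). Since insulin took 42.6% of the UMIs in FAKi T cells, the ratio was recomputed without the cells in which insulin exceeded 5% of UMIs. This left 163 vehicle and 16 FAKi cells and turned the summed ratio to a log2 value of 0.72, and subtraction of β-cell RNA brought it to -0.04. In B cells 7 members were higher by the fold, beside 17.3% of 1768 genes, and 0 were lower, beside 32.5%. Fos was at 766 CPM in 113 vehicle cells and 3336 CPM in 9 FAKi cells (4.36, 3.73 to 5.08). The intervals of both classes take no account of how few cells carried the counts.

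Spread over cells was wide in every class. The summed members per vehicle β-cell ran from 1683 CPM at the lowest 5% to 12638 at the highest 5%, with a median of 5764, and in FAKi from 588 to 10357 with a median of 3658. In α-cells the medians were 10506 and 15391 CPM and the quartiles 6762 and 16359 in vehicle and 11043 and 19761 in FAKi. The ranges of single cells from the libraries overlapped in every class, while the medians lay apart in the direction of the summed level in β-cells, α-cells and δ-cells. In ductal cells the quartiles were 23887 and 39420 CPM in vehicle and 17815 and 39915 in FAKi around medians of 30601 and 29317.

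**Figure D4:**
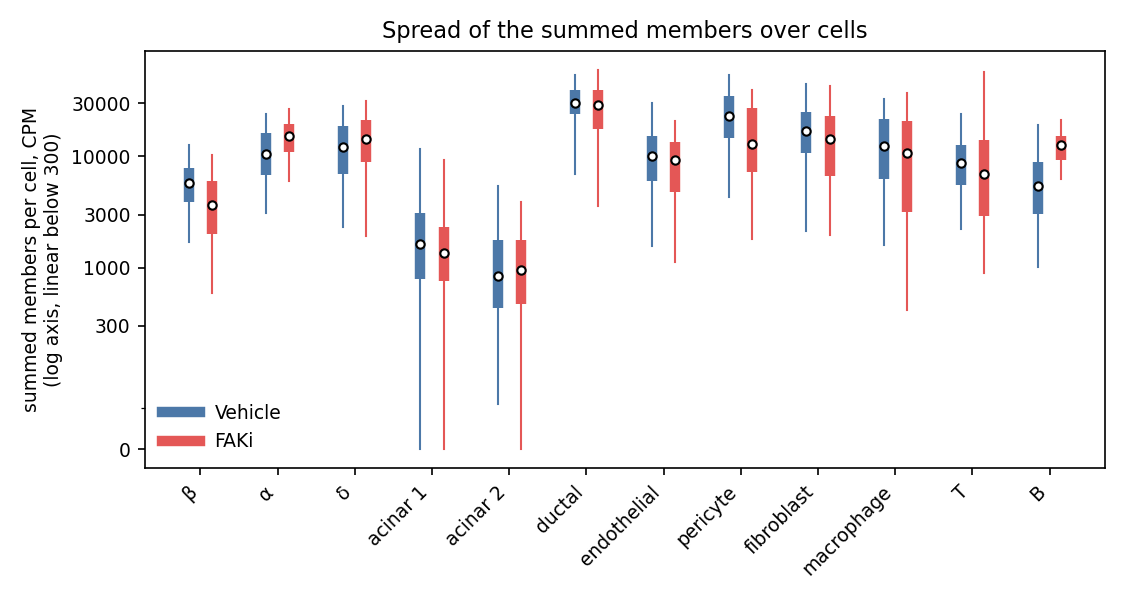
Summed members per cell in CPM for each annotated class and library, with a circle at the median, a thick bar from the lower to the upper quartile and a thin line from the lowest 5% to the highest 5% of cells; the axis is logarithmic above 300 CPM and linear below it. The medians were 5764 and 3658 CPM in β-cells and 10506 and 15391 CPM in α-cells.

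Read by gene, Junb and Nr4a1 were lower in FAKi almost throughout. Junb was lower in 11 of 12 classes and past the fold in 7 of them, and Nr4a1 in 10 of 12 and past the fold in 8. Nr4a1 had at least 50 UMIs in 10 classes. Of 1546 genes with at least 50 UMIs in 10 or more classes, 15 were lower by the fold in 7 or more classes, 0.970%, and 2 of the 10 members were among them. The other 13, named after their values were seen, were Gm10076, Nfkbia, Bhlhe40, Cebpb, Csrnp1, Gadd45b, Hbb-bs, Mt2, Gem, Irf1, Maff, Mt1 and Pde4b. Nfkbia encodes the inhibitor of NF-κB, and Cebpb, Irf1 and Maff encode transcription factors, while Mt1 and Mt2 encode metallothioneins. The comparisons share the same 2 libraries, so a gene that is low in several classes is not several independent observations.

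Jun behaved differently from Junb. It was higher in FAKi in 9 of 12 classes, with an interval above 1 in 7 of them, and 10.3% of the 1546 genes were above 1 in 9 or more classes. It was past the fold in 4 classes and lower by it in none, a pattern of 4 or more classes that 1.68% of the genes had. The 4 were α-cells, δ-cells, acinar cluster 2 and B cells, the last with 9 FAKi cells. After thinning, Jun in acinar cluster 2 was at 186 and 193 CPM, which is within the fold. Atf3 had no common direction, with values above 1 in 6 classes and below 1 in 6. Because Jun and Junb are compared within a library, their ratio does not depend on the total, and this pair was chosen after its values were seen. The number of Jun UMIs per Junb UMI was higher in FAKi in all 12 classes, with counting intervals apart in 10, and the intervals overlapped in β-cells and acinar cluster 1. Of the 45 pairs of members, 5 turned one way in all 12 classes. These were Jun over Junb, Dusp1 over Junb, Jun over Jund, Ier2 over Junb and Fos over Fosb, with intervals apart in 10, 9, 8, 7 and 4 classes, and Fos over Junb was higher in 11. The pairs share members and are not independent of each other. Jun over Junb went from 1.41 to 4.01 in δ-cells, from 1.17 to 1.85 in α-cells, from 0.439 to 0.839 in ductal cells, from 0.905 to 1.72 in endothelial cells and from 0.657 to 1.34 in fibroblasts. In β-cells it was 2.22 (2.19 to 2.26) and 2.23 (2.19 to 2.27), a difference within counting error.

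The classes with the highest Jun to Junb ratio in vehicle were β-cells, acinar cluster 1 and acinar cluster 2, and the lowest were T cells at 0.384, B cells at 0.405 and ductal cells. The intervals of acinar cluster 1 (1.19 to 1.90) and acinar cluster 2 (1.20 to 1.89) included the δ-cell value of 1.41. As a mean over cells, acinar cluster 2 was at 0.976 in vehicle. Subtraction of β-cell RNA by insulin left the ratio higher in FAKi in 11 classes, with 1.40 and 4.03 in δ-cells, 0.433 and 0.828 in ductal cells and 0.342 and 1.28 in T cells, and turned it in acinar cluster 1, at 0.993 and 0.809. Without insulin-rich cells it was higher in 12 classes. The FAKi value over the vehicle value fell below 1 in β-cells under 3 alternatives. These gave 0.959 as a mean over cells, 0.990 under 5% mitochondrial counts and 0.992 without called doublets. For acinar cluster 1 it was 0.991 in cells with at least 1000 detected genes, which left 4 vehicle and 13 FAKi cells.

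**Figure D5:**
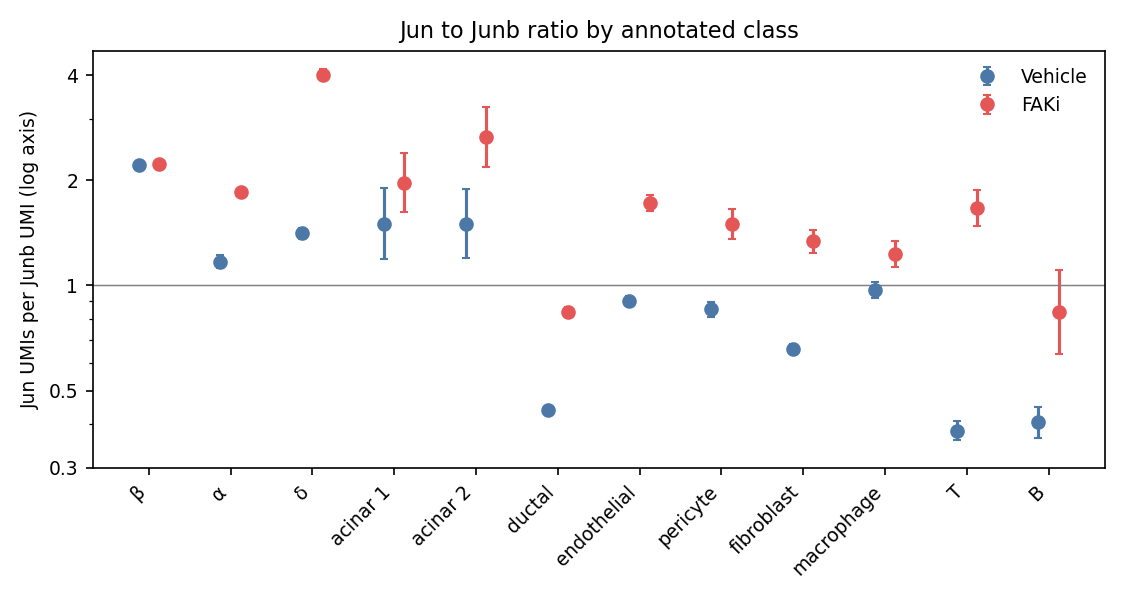
Number of Jun UMIs per Junb UMI on a log axis in each annotated class for vehicle and FAKi, with bars for exact 95% intervals (counting error only) and a line at 1. FAKi lay above vehicle in all 12 classes, most in T cells (0.384 and 1.67) and δ-cells (1.41 and 4.01), and by less than the counting error in β-cells (2.22 and 2.23).

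Other genes of the early response were then set beside the members, from lists made by function, and of each list but the upstream mediators the 4 genes with most UMIs are named. Of the feedback regulators, genes whose products end the response, 6 of 16 measured were lower by 1.5-fold in β-cells, where 4.25% of all genes were, and 1 was higher, where 1.91% were. Their median log2 ratio in β-cells was -0.49 beside -0.05 over all genes. In endothelial cells 7 of 16 were lower (8.63% of all genes), in δ-cells 7 of 15 (4.37%) and in α-cells 3 of 13 (2.74%), with 1 higher in α-cells (4.85%). B cells went the other way, with 8 of 11 higher (17.3%) and 2 lower (32.5%), and T cells had 13 of 14 lower (44.4%). Of 6 measured in acinar cluster 2, 0 were higher (10.5%) and 0 lower (5.09%). Btg2, an antiproliferative gene and the most abundant of the list, was at 577 and 469 CPM in β-cells (0.813, 0.797 to 0.830) and at 912 and 1041 CPM in α-cells (1.14, 1.09 to 1.19). Zfp36, whose product degrades early transcripts, was at 196 and 102 CPM in β-cells (0.520, 0.50 to 0.542) but at 419 and 538 CPM in α-cells (1.28, 1.21 to 1.36). Nfkbia, which restrains NF-κB, was at 146 and 71.8 CPM in β-cells (0.493, 0.470 to 0.517) and at 350 and 198 CPM in α-cells (0.565, 0.522 to 0.612). Btg2 and Zfp36 thus had the direction of Fos in these classes, and Nfkbia that of Nr4a1. Socs3, an inhibitor of cytokine signalling, was at 151 and 99.9 CPM in β-cells (0.662, 0.635 to 0.691) and at 254 and 466 CPM in α-cells (1.83, 1.70 to 1.97).

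Of the other immediate early transcription factors, 4 of 12 were lower by the fold in β-cells (4.25% of all genes), 7 of 12 in ductal cells (6.11%), 6 of 11 in endothelial cells (8.63%) and 7 of 11 in fibroblasts (14.1%), and 0 were higher in these classes, where 1.91%, 5.14%, 4.0% and 7.09% of all genes were. In α-cells 1 of 12 was higher (4.85%) and 1 lower (2.74%), in δ-cells 2 were higher (2.13%) and 4 lower (4.37%), and in macrophages 2 of 9 were higher (5.5%) and 5 lower (15.8%). In B cells 5 of 7 were higher (17.3%) and 0 lower (32.5%), both genes measured in acinar cluster 2 were higher (10.5%), and 8 of 8 were lower in T cells (44.4%), 4 of 7 in pericytes (10.5%) and the 1 gene measured in acinar cluster 1 (7.58%). Klf6 was at 43.2 and 34.5 CPM in β-cells (0.799, 0.741 to 0.862) and at 163 and 180 CPM in α-cells (1.11, 1.00 to 1.23). Klf2, a factor induced by flow in endothelium, had a ratio of 0.977 in β-cells (0.90 to 1.06) and 1.53 in α-cells (1.33 to 1.76). Klf4 had ratios of 1.03 (0.901 to 1.18) and 1.20 (1.11 to 1.31) in these classes, and Bhlhe40, a repressor of the clock, of 0.606 (0.549 to 0.669) and 1.25 (0.880 to 1.79).

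Of the other immediate early responders, 6 of 17 were higher in α-cells (4.85% of all genes) and 6 of 17 lower in β-cells (4.25%), and 9 of 20 were lower in ductal cells (6.11%). Gadd45g, a growth arrest gene, was at 428 and 330 CPM in β-cells (0.772, 0.754 to 0.791) and at 284 and 545 CPM in α-cells (1.92, 1.79 to 2.06). Ier3 had a ratio of 0.777 in β-cells (0.685 to 0.881) and 0.896 in α-cells (0.631 to 1.28), Rhob of 1.00 (0.936 to 1.07) and 1.40 (1.26 to 1.55), and Gadd45b of 0.457 (0.425 to 0.490) and 1.22 (1.12 to 1.32). Among relatives of AP-1 and ATF, 2 of 6 were lower by the fold in β-cells (4.25%). Atf4, the stress factor with most UMIs in that list, was at 155 and 160 CPM in β-cells (1.03, 0.995 to 1.07). Of the small Maf proteins there, Maff was at 47.7 and 18.5 CPM (0.388, 0.355 to 0.424), Mafg at 46.7 and 45.1 CPM (0.967, 0.903 to 1.04) and Mafk at 13.0 and 8.23 CPM (0.634, 0.547 to 0.735).

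Few of the kinases and factors upstream passed the fold in β-cells and α-cells. Of 16 measured mediators that act on SRF, CREB and the MAP kinases, 0 were higher (1.91% of all genes) and 1 was lower (4.25%) in β-cells, and in α-cells 1 of 15 was higher (4.85%) and 0 lower (2.74%). The median log2 ratio of this list was -0.09 in β-cells and 0.11 in α-cells, where the members had medians of -0.46 and 0.33 and all genes -0.05 and 0.04. T cells had 3 of 8 mediators lower (44.4%) and B cells 2 of 3 (32.5%), with 0 higher in both (11.0% and 17.3%). Fibroblasts had 1 of 13 higher (7.09%) and 2 lower (14.1%).

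Heat shock genes, a second group that responds to stress and to dissociation, were counted in the same way. In α-cells 7 of 14 were higher by the fold (4.85% of all genes) and 0 lower (2.74%), with a median log2 ratio of 0.62, and in δ-cells 7 of 14 were higher (2.13%) and 0 lower (4.37%), with a median of 0.66. In β-cells 1 of 14 was higher (1.91%) and 0 lower (4.25%), with a median of 0.16. Acinar cluster 2 had 7 of 10 higher (10.5%) and 0 lower (5.09%), with a median of 0.81. Acinar cluster 1, where all members had lower values, had 5 of 11 higher (14.1%) and 0 lower (7.58%), with a median of 0.41. T cells had 0 of 12 higher (11.0%) and 6 lower (44.4%), and B cells 5 of 11 higher (17.3%) and 2 lower (32.5%). The most abundant, Hsp90ab1, a cytosolic chaperone, had ratios of 1.13 in β-cells (1.11 to 1.15), 1.25 in α-cells (1.20 to 1.30) and 1.27 in δ-cells (1.23 to 1.32). The constitutive chaperone Hspa8 had ratios of 0.978 (0.960 to 0.996), 1.24 (1.20 to 1.29) and 1.30 (1.26 to 1.35) in the same order, and Hsp90aa1 of 1.10 (1.08 to 1.13), 1.24 (1.18 to 1.31) and 1.46 (1.40 to 1.52). Hspa1a, an inducible chaperone, was at 518 and 925 CPM in α-cells (1.79, 1.70 to 1.88), at 678 and 1526 CPM in δ-cells (2.25, 2.16 to 2.35) and at 411 and 476 CPM in β-cells (1.16, 1.13 to 1.18). In pericytes, where all members had ratios below 1, 4 of 13 heat shock genes were higher (8.14%) and 1 lower (10.5%), with a median of 0.04, and Hspa1a was at 2347 and 4338 CPM (1.85, 1.71 to 1.99), and its near-identical copy Hspa1b may share reads with it. Islets of the conditions were digested and sequenced as separate libraries, so the treatment, the 5 mice of each pool and the handling of each preparation cannot be told apart.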

How the data were processed

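Islet cells of vehicle-treated and FAKi-treated mice were profiled by droplet single-cell RNA-seq with a 3′ kit. The authors made the gene by cell matrices with Cell Ranger (build mm10 in the submitters' processing notes), set cell filters from Seurat 3.1 plots, integrated scran-normalized values with scanorama, clustered cells by the Louvain method, and deposited raw UMI counts per gene and cell with a class, a treatment and a mitochondrial percent for each cell. The largest deposited mitochondrial percent was 7.999, under the authors' limit of 8. The 4 lanes of each condition are merged in the deposited counts and were treated as 1 library.

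Counts were summed per class and library and scaled to CPM of all UMIs of the class. A 3′ UMI count needs no length scaling. Intervals are exact (Poisson for levels, Clopper-Pearson for shares, conditional binomial for ratios, scipy 1.17.1, 95% level) and cover counting error only. With 1 library per condition there was no test, and a difference of 1.5-fold was used to count genes with at least 50 UMIs in a class. The 10 members are all named. Of each list but the upstream mediators, whose single genes are not reported here, the 4 genes with most UMIs were named, and Hspa1b and the genes lower in 7 or more classes were named outside this rule. Members and lists were chosen with earlier results of these data known. Doublets (68 vehicle and 57 FAKi barcodes called by Scrublet) were kept in the main values and left out in an alternative. Alternatives were other totals (without the 20 most abundant genes, without hormone genes), equal weight per cell, thinning to 1000 UMIs, stricter cell filters, cells without doublets or insulin-rich cells, single β-cell clusters, a fold of 2 and subtraction of β-cell RNA, the last and the hormone-free total being added after the data were seen. The interval code was checked on simulated counts. Members are whole-gene counts, and antisense or overlapping transcripts were not separated here.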

Additional observations from a re-analysis of the deposited data

Results flagged for a closer look

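The direction of the summed members differed between classes under the same contrast, and 11 of the 12 classes had a ratio of FAKi over vehicle whose counting interval excluded 1. The ratio was 1.31 in α-cells, 1.21 in δ-cells, 1.25 in acinar cluster 2 and 1.69 in B cells. It was 0.712 in β-cells, 0.726 in acinar cluster 1, 0.728 in pericytes, 0.800 in endothelial cells, 0.913 in ductal cells, 0.931 in fibroblasts and 0.578 in T cells. Some of these directions changed under an alternative. The log2 ratio became -0.28 in acinar cluster 2 as a mean over cells and 0.72 in T cells without insulin-rich cells. That of fibroblasts became 0.04 without the 20 most abundant genes, and B cells had only 9 FAKi cells. The difference between classes was not tested, since each condition is 1 library and the classes share both libraries. Median insulin UMIs per cell were higher in FAKi in all 11 classes other than β-cells, median depth in 6 of them and the median mitochondrial percent in 2 of them, and their part in these ratios was not tested beyond the alternatives given under processing.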

How the results depend on the processing

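The log2 ratio of the summed members in β-cells, -0.49 as reported, was -0.44 without the 20 most abundant genes and without hormone genes in the total, -0.53 as a mean over cells and after thinning, and -0.48 in cells under 5% mitochondrial counts. By cluster it was -0.51, -0.59 and, in cluster 10, 0.01. In α-cells (0.39) it was 0.34, 0.42, 0.41 and 0.30 without the 20 genes, as a mean over cells, thinned and under 5% mitochondrial counts, and in δ-cells (0.27) it was 0.30, 0.18 and 0.24 under the first 3. With a fold of 2, 4 pairs of a member and a class were higher and 6 lower (1.47% and 3.93% of all gene and class pairs), against 15 and 27 (5.15% and 9.64%).

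Changes of sign among called values lay in T cells, B cells and acinar cluster 2. In T cells the sum turned to 0.51, 0.59 and 0.72 as a mean over cells, thinned and without insulin-rich cells. There Jund turned to 0.08, 0.24 and 0.31 and Dusp1 to 0.51, 0.76 and 0.86 under the same alternatives, and Dusp1 to 0.25 after subtraction of β-cell RNA. Atf3 turned to 0.15 when thinned and 0.17 without insulin-rich cells, where Ier2 was 0.47 and Nr4a1 0.41. Ier2 in acinar cluster 2 was -0.58 as a mean over cells and -0.04 thinned, and Nr4a1 in B cells was -0.70 thinned. The cause of these changes was not tested. Leaving out called doublets turned none of the called values. No replicate could be left out, with 1 library per condition, and the number of FAKi T and B cells limits both classes.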
